A study of Mus musculus with 16 samples.

Results

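The histone lysine methyltransferases and demethylases were followed in 2 mouse mammary carcinoma lines, with and without an inhibitor of the cytosolic phospholipase cPLA2α. The members were all protein-coding genes named Kmt, Kdm, Setd, Suv39h, Ehmt, Ezh1, Ezh2, Nsd1 to Nsd3 or Prdm with a number, and all 59 of them were among the 33072 genes of the expression table. They comprised 22 writers with a known histone mark, 5 SET-domain proteins without a firm histone mark, 14 factors of the PRDM family and 18 erasers. 4T1 and 67NR are isogenic lines of BALB/c strain, both derived from 1 spontaneous mammary carcinoma, and the labels give 4T1 as metastatic and 67NR as non-metastatic. Subconfluent cultures of each line received vehicle (DMSO) or 15 µM CIX, the cPLA2α inhibitor, in fresh DMEM with 10% FBS for 24 h. Poly(A) RNA was sequenced from 4 samples in each of the 4 groups. Each line stands for 1 cell population kept in culture, so that the samples do not cover differences between tumors.

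Histone methylation is set by writers, which transfer a methyl group from S-adenosylmethionine to a lysine of histone H3 or H4, and reversed by erasers. The erasers are either flavin-dependent, as Kdm1a, or use iron and 2-oxoglutarate, as the other Kdm families. Methylation of H3K4 marks promoters and enhancers in use, methylation of H3K36 the bodies of transcribed genes, and methylation of H3K9, H3K27 and H4K20 is best known from silenced or compacted chromatin. The PRDM factors carry a domain related to SET next to zinc fingers, and most act as DNA-binding regulators.

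The libraries held 21715700 to 29450629 estimated counts. In the 4T1 cells the epithelial genes Cdh1 and Krt18 read at least 467 and 1018 CPM (counts scaled to library size and by TMM) in every library, whereas in the 67NR cells both stayed below 2 CPM. Conversely, Cdh2 and Zeb1, 2 mesenchymal genes, read at least 142 and 50.8 CPM in the 67NR libraries and below 1 CPM in the 4T1 libraries. The myoepithelial keratin Krt5 was at or near 0 in all of them, as were the leukocyte markers Cd3e and Adgre1. Ptprc, the pan-leukocyte antigen CD45, read 0.950 to 1.44 CPM in 4T1 vehicle and 0.129 to 0.932 CPM in 4T1 CIX, without overlap, and at most 0.124 CPM in the 67NR libraries. Of the 6 leukocyte markers, 1 passed the filter, the lysosomal gene Cd68, and it rose under CIX in both lines, from 69.1 to 165 CPM in 4T1 and from 8.85 to 37.6 CPM in 67NR. In such bulk samples, fewer cells of a type and less RNA per cell cannot be told apart. Libraries 3 (4T1 vehicle) and 4 (4T1 CIX) stood apart from the rest of their groups, with median log2 distances of -0.24 and -0.25 over the members. Library 13 (67NR vehicle) stood apart over all genes, with a median absolute log2 distance of 0.202 against 0.114 to 0.123 in the rest of its group, but not over the members (median log2 distance 0.003). The counts of calls under CIX in 4T1 and in the interaction, and the sums and ratios of 4T1, are therefore also given without libraries 3 and 4, and the sums, ratios and calls that use 67NR vehicle without library 13. The 16 samples are called biological replicates in the methods of the study; nothing in the labels beyond their numbers says that cultures were separate, so that p-values measure the spread between these samples.

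Of the 59 members, 51 passed the filter on low values in at least 1 comparison and 8 in none. Kmt5a, which places the first methyl group on H4K20, had the highest mean level per length of the writers when averaged over all 16 libraries, at 157 TPM (counts scaled by transcript length and library). Ehmt2, the G9a enzyme that places 1 or 2 methyl groups on H3K9, followed at 141 TPM. The order differed between groups: Kmt5a averaged 176 and 186 TPM in 67NR vehicle and CIX against 108 and 138 TPM for Ehmt2, both were close in 4T1 vehicle (115 and 110 TPM), and in 4T1 CIX Ehmt2 was the higher (207 and 151 TPM). Over all libraries, Nsd2, a writer of H3K36, averaged 74.1 TPM, Setd1a, a writer of H3K4, 65.3 TPM and Ezh2, the catalytic subunit of Polycomb complex PRC2 that writes H3K27, 55.0 TPM. These rankings and the sums below depend on the transcript length used, the plain mean over the annotated transcripts of a gene. By CPM, Nsd2 was the highest writer in every group. It averaged 195 and 300 CPM in 4T1 vehicle and CIX, and 237 and 252 CPM in 67NR vehicle and CIX. Among the erasers, Kdm1a (LSD1, which removes methyl groups from H3K4) averaged 78.1 TPM, Kdm2a, which demethylates H3K36 at CpG-rich promoters, 72.7 TPM, and Kdm4b and Kdm3a, which act on H3K9, 61.3 and 57.8 TPM. Kdm1a led in 4T1 CIX only, with 124 TPM. In the other groups the highest eraser was Kdm2a, with 93.8 TPM in 4T1 vehicle, 59.3 TPM in 67NR vehicle and 67.5 TPM in 67NR CIX, where Kdm1a averaged 71.4, 52.2 and 64.2 TPM. The H3K27 erasers were lower, with Kdm6b at 26.9 TPM and Kdm6a at 16.3 TPM. Setd3, known as the methyltransferase of a histidine in actin, had 122 TPM, and Prdm4 averaged 49.7 TPM, the highest of the PRDM factors except in 4T1 CIX, where Prdm2 had 36.5 and Prdm4 35.4 TPM. At the other end, Prdm13 and Prdm16 had no count in any library.

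The balance of writers and erasers was described by the summed TPM of the 22 writers over that of the 18 erasers in each sample, without a test. In 4T1 vehicle the ratio was 1.36, 1.25, 1.18 and 1.23, and under CIX it was 1.67, 1.60, 1.73 and 1.47. In 67NR vehicle the 4 ratios were 1.95, 2.35, 2.41 and 2.55, against 2.02, 2.11, 2.21 and 2.13 under CIX. The 4T1 groups therefore did not overlap with each other or with either 67NR group, while the 67NR groups overlapped. On average the ratio was 1.26 ± 0.0754 (SD, n = 4) in 4T1 vehicle and 2.32 ± 0.258 (SD, n = 4) in 67NR vehicle. This gap lay mostly in the erasers, whose sum was 668 ± 100 TPM (SD, n = 4) in 4T1 and 388 ± 28.1 TPM (SD, n = 4) in 67NR, while the writers summed to 835 ± 96.4 and 893 ± 42.9 TPM (SD, n = 4). With CIX the writer sum of 4T1 averaged 1042 ± 106 TPM (SD, n = 4) and the eraser sum 648 ± 91.1 TPM (SD, n = 4). Without libraries 3 and 4 the ratio was 1.22 ± 0.036 in 4T1 vehicle and 1.60 ± 0.128 in 4T1 CIX, the writer sums 874 ± 69.1 and 1095 ± 9.59 TPM and the eraser sums 715 ± 43.0 and 688 ± 55.0 TPM (SD, n = 3). Without library 13 the 67NR vehicle ratio was 2.24 ± 0.251, the writer sum 879 ± 38.7 TPM and the eraser sum 395 ± 30.1 TPM (SD, n = 3). A sum is led by its highest genes, and Ehmt2 alone made up 13.2% of the writer sum in 4T1 vehicle and 20% under CIX.

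**Figure D1:**
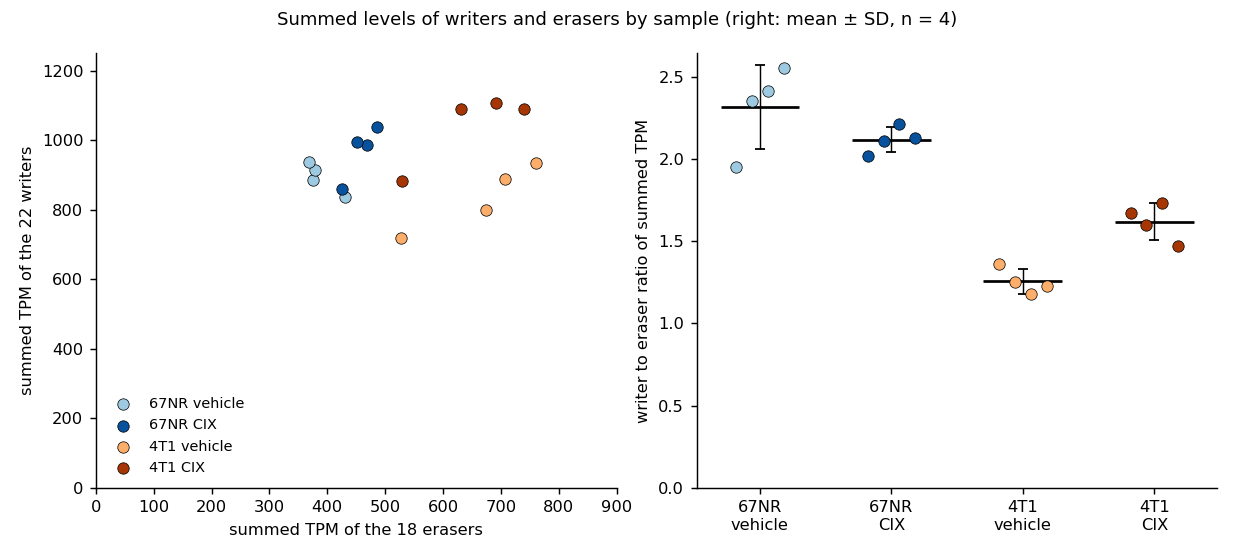
Summed TPM of the 22 writers against that of the 18 erasers in each sample (left, both axes in TPM) and their ratio by group (right, points are samples, lines and bars the mean and SD of 4 samples). The 4T1 samples lie at eraser sums of 527 to 761 TPM and the 67NR samples at 368 to 486 TPM, and the ratio is lowest in 4T1 vehicle.

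Split by role, some sums separated the groups and others did not. The H3K9 writers summed to 211, 258, 223 and 263 TPM in 4T1 vehicle and to 315, 343, 349 and 329 TPM under CIX, with no overlap. This rise lay in Ehmt2, which averaged 110 TPM in vehicle and 207 TPM under CIX. The other H3K9 writers did not rise as a group. Ehmt1 averaged 55.6 and 53.0 TPM, Setdb1 29.5 and 31.3 TPM and Suv39h1 24.9 and 27.6 TPM. Suv39h2 averaged 8.74 and 8.87 TPM and Setdb2 9.75 and 6.20 TPM. The PRDM factors of 4T1 summed to 120 to 151 TPM in vehicle and 92.7 to 111 TPM under CIX, and the H3K36 erasers to 113 to 147 and 94.0 to 104 TPM. In 67NR 1 such sum separated, that of the H3K27 erasers, with 26.8 to 29.6 TPM in vehicle and 31.6 to 47.9 TPM under CIX. The H3K4 erasers of 67NR met at 120 TPM, and the remaining role sums overlapped between vehicle and CIX in each line. Among single genes tested, groups did not overlap for 40% in 4T1 and 23.3% in 67NR, so that a separated sum is nothing unusual. Between the vehicle groups, the H3K4 erasers summed to 223 ± 30.2 TPM in 4T1 and 117 ± 3.81 TPM in 67NR (SD, n = 4), and the H3K27 erasers to 53.0 ± 9.54 and 28.0 ± 1.32 TPM (SD, n = 4). The PRDM factors of 67NR vehicle, at 82.2 to 93.3 TPM, and its H3K36 erasers, at 85.1 to 99.1 TPM, also lay below those of 4T1 vehicle. The H4K20 writers had the opposite order, with 183 ± 14.7 TPM in 4T1 and 261 ± 16.3 TPM in 67NR (SD, n = 4). Without libraries 3 and 4 the H3K9 writers averaged 248 and 341 TPM in 4T1 vehicle and CIX, the PRDM factors 139 and 105 TPM and the H3K36 erasers 127 and 97.8 TPM. The 4T1 vehicle means were then 237 TPM for the H3K4 erasers, 55.0 TPM for the H3K27 erasers and 188 TPM for the H4K20 writers. Without library 13 the 67NR vehicle means were 118 TPM for the H3K4 erasers, 28.3 TPM for the H3K27 erasers, 93.2 TPM for the H3K36 erasers, 91.1 TPM for the PRDM factors and 257 TPM for the H4K20 writers. These sums are descriptions, and the genes behind them were tested singly.

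The first comparison asked how the metastatic line responded to the inhibitor. In 4T1 cells, 5 of the 49 members tested passed adjusted p < 0.001 in limma-voom (10.2%), with 4 higher and 1 lower under CIX, against 9.32% of all 11664 genes tested (5.34% higher, 3.98% lower). The share of members was thus near that of all genes and is no result about the members. By role, 1 of 22 writers, 2 of 5 SET proteins without a firm mark and 1 of 16 erasers rose, and 1 of 6 PRDM factors fell. The median log2 fold change was 0.17 over the members, -0.01 over all genes and 0.03 over the tenth of all genes with the longest transcripts, which holds 14 of the 49 members.

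Ehmt2 (chr17:34898469-34914052, GRCm38) rose 2.00-fold. It read 116, 165, 153 and 155 CPM in vehicle and 278, 300, 311 and 291 CPM with CIX, so that every treated library lay above every vehicle library. The log2 fold change was 1.00 ± 0.11 (SE, adjusted p = 0.000236, limma-voom). Ehmt1, its partner GLP, had a log2 fold change near 0 and did not pass. Wiz, a zinc finger protein of the Ehmt1 and Ehmt2 complex, rose as well, from 51.5 to 107 CPM on average with a log2 fold change of 1.04 ± 0.12 (SE, adjusted p = 0.000238, limma-voom).

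Kdm1a (chr4:136550540-136602723), the flavin-dependent eraser of H3K4, rose from 68.7, 81.4, 89.8 and 86.0 CPM to 131, 141, 151 and 181 CPM, again without overlap. Its log2 fold change was 0.87 ± 0.13 (SE, adjusted p = 0.000684, limma-voom). Rcor1 (CoREST), the scaffold that holds Kdm1a on nucleosomes, rose with a like log2 fold change of 0.87 ± 0.12 (SE, adjusted p = 0.000631, limma-voom), from 55.0 to 102 CPM. Kdm1a overlaps Luzp1 on the opposite strand, and the strand setting of the counting is not given in the sources used here. Rcor1 was the 1 gene of 7 in the list of LSD1 partners that passed.

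Setd5 and Setd6, which have a SET domain but no firm histone mark of their own, both rose. Setd5 (chr6:113077365-113153435), a chromatin-associated protein known from neurodevelopmental disorders, read 93.7, 94.5, 79.1 and 104 CPM in vehicle and 162, 164, 152 and 165 CPM with CIX. Its log2 fold change was 0.78 ± 0.10 (SE, adjusted p = 0.000433, limma-voom), and the groups did not overlap. Setd6 (chr8:95715881-95719010), which methylates the NF-κB subunit RelA, had the largest change of the called members. It read 13.2, 9.55, 6.04 and 14.5 CPM in vehicle and 32.9, 30.0, 33.5 and 29.9 CPM with CIX, a log2 fold change of 1.60 ± 0.23 (SE, adjusted p = 0.000684, limma-voom). Of the transcript sequence of Setd6, 6.20% of the 31-base words also occur in other genes, chiefly Gm5405.

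Prdm4 (chr10:85891966-85917142), a zinc finger factor of the PRDM family, was the member that fell. It read 100, 121, 98.3 and 106 CPM in vehicle and 56.9, 65.2, 72.2 and 60.6 CPM with CIX, a log2 fold change of -0.76 ± 0.11 (SE, adjusted p = 0.000761, limma-voom). In Prdm4, 8.49% of the 31-base words were shared, chiefly with Gm17740. In 67NR cells the same gene read 78.9 to 99.0 CPM in vehicle and 88.9 to 91.5 CPM with CIX.

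**Figure D2:**
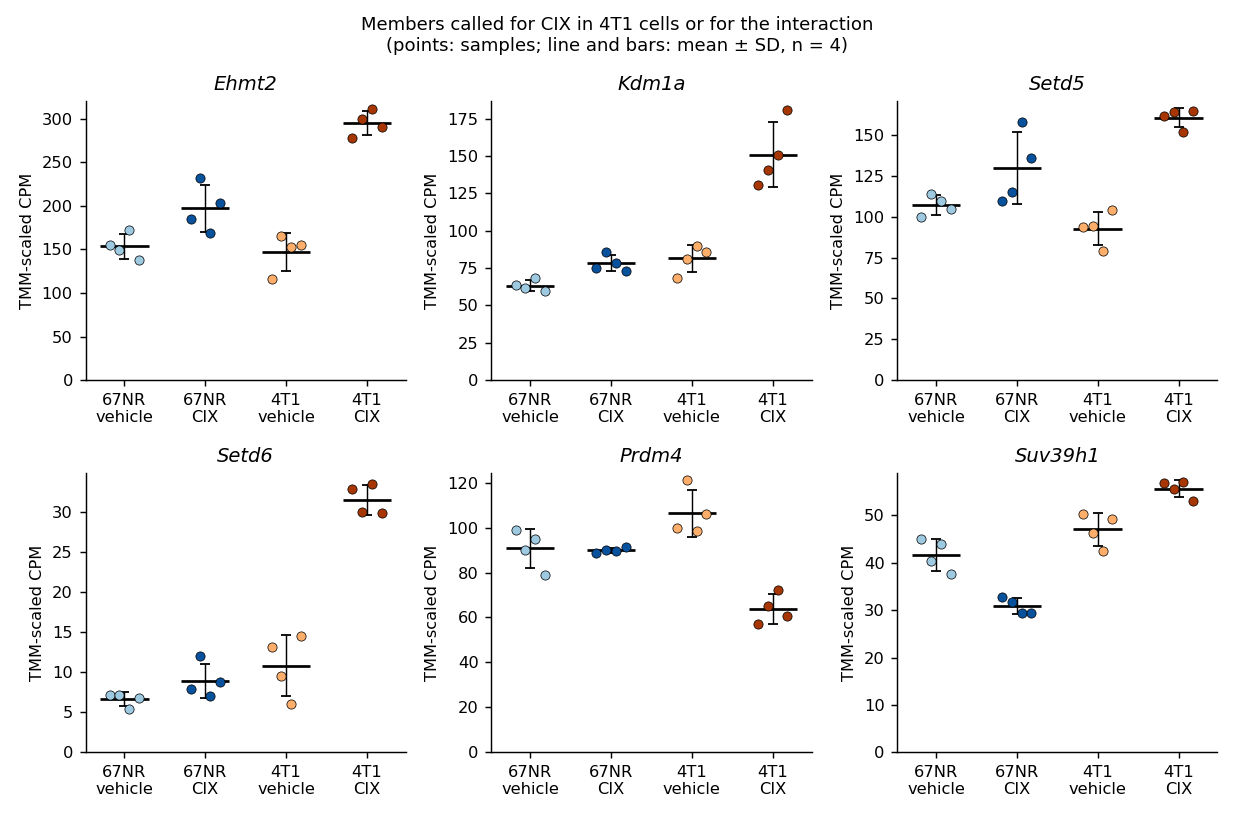
TMM-scaled CPM of 6 members by group (points are samples, lines and bars the mean and SD of 4 samples, every axis starts at 0). In 4T1 cells the CIX libraries lie above all vehicle libraries for Ehmt2, Kdm1a, Setd5, Setd6 and Suv39h1, and below them for Prdm4.

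At the looser threshold of adjusted p < 0.05, 20 of 49 members passed, 12 higher and 8 lower, against 42.7% of all genes (21.9% and 20.8%). Groups that did not overlap were found for 15 of 49 members, against 40% of all genes tested. By log2 fold change, the largest values between both thresholds were those of Kdm8 on the lower side, with a log2 fold change of -0.99 ± 0.18 (SE, adjusted p = 0.00214, limma-voom), and of Prdm15 on the higher side, with 1.03 ± 0.24 (SE, adjusted p = 0.00747, limma-voom). Both genes were picked after their values were seen. The leaders of the other roles missed the threshold in limma-voom. On the higher side these were Ezh2 (log2 fold change 0.55 ± 0.14, adjusted p = 0.00954), Nsd2 (0.58 ± 0.15, 0.0136), Kmt5a (0.47 ± 0.10, 0.00439) and Setd3 (0.41 ± 0.36, 0.381). Below 0 lay Setd1a (-0.40 ± 0.10, 0.0109), Kdm2a (-0.34 ± 0.12, 0.0482), Kdm6b (-0.04 ± 0.15, 0.867) and Kdm4b (-0.01 ± 0.42, 0.986), with the SE after each value. DESeq2 called Ezh2, Kmt5a and Setd1a among them, and the common fit of all 16 samples called Ezh2 and Kmt5a. Setd1a shares 51.8% of its 31-base words with other genes, mainly the overlapping Gm49388, so that its level is uncertain.

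The calls in 4T1 depended on single libraries. Without vehicle 3, 7 or 15, Ehmt2 was the 1 member called, without CIX 8, 12 or 16 the count was 0, and it was 4 without CIX 4 and 3 without vehicle 11. The share of all genes called fell as well, to 2.97%, 4.51% and 3.46% without CIX 8, 12 and 16, to 2.44% to 6.12% without a vehicle library and to 8.82% without CIX 4. Over these 8 fits the log2 fold change of Ehmt2 ranged from 0.89 to 1.06 with adjusted p of at most 0.00134, and none of the 5 members changed direction. DESeq2 called 11 members and 26.5% of all genes, a common fit of all 16 samples 8 and 23%, and limma on log2(TPM + 1) or log2(TPM + 0.1) called 2 members and 8.67% or 8.42%. Kdm1a, Setd5 and Setd6 were lost in both TPM fits. Setd6 was also lost in edgeR, which called 4 members and 8.86% of all genes, and Prdm4 was lost with no filter, where 4 members and 4.96% of all genes passed. Without libraries 3 and 4 together, a choice made after seeing the data, Ehmt2 was the 1 member called against 7.13% of all genes. It kept its call at adjusted p = 0.000365 (limma-voom) and the other 4 had adjusted p of 0.00109 to 0.00284. Genes of cell identity moved under the same treatment: the mesenchymal gene Vim rose by 1.24 on the log2 scale (1118 to 2676 CPM) and the epithelial gene Epcam fell by 0.78 (316 to 186 CPM). Of the mesenchymal list, 3 of 4 tested genes rose, and of the epithelial list 1 of 5 fell. The other 4 epithelial genes did not pass the test, and their log2 fold changes were 0.45 for Krt7 (adjusted p = 0.00525, limma-voom), 0.43 for Krt8, 0.14 for Krt18 and -0.29 for Cdh1, so that the list had a median of 0.14. Their part in the member values was not tested.

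The same treatment in the non-metastatic line gave no call. In 67NR cells, 0 of 49 members passed adjusted p < 0.001 in limma-voom, where 0.389% of all 11566 genes did, and 0 passed in edgeR, where 0.398% did. At an unadjusted p < 0.05 there were 13 of 49 members, against 32.8% of all genes, and at adjusted p < 0.05 there were 7 (14.3%) against 17.8% of all genes. DESeq2 called 5 members at 0.001, Kdm4a, Kdm5b, Kdm6b, Kdm7a and Suv39h1, against 9% of all genes in that test. The median log2 fold change was 0.16 over the members, -0.01 over all genes and 0.09 over the tenth with the longest transcripts, which again holds 14 of the 49 members, and 37 of 49 members had values above 0. The median transcript length was 2515 bases over the members and 1674 bases over all genes tested, and the part of length in these values was not tested. Without library 13, 0 members and 0.129% of all genes were called. Among the erasers 14 of 16 lay above 0, with 5 past adjusted p < 0.05 (8.52% of all genes were higher at that threshold), and among the writers 14 of 21, with none of them past it upward.

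The values of the erasers at the looser threshold, described after they were seen, were as follows. Kdm7a, which acts on H3K9 and H3K27, read 10.9, 14.9, 12.8 and 12.5 CPM in 67NR vehicle and 22.6, 37.3, 35 and 40.5 CPM with CIX, a log2 fold change of 1.36 ± 0.20 (SE, adjusted p = 0.00348, limma-voom). Kdm5b, an eraser of H3K4, read 4.29, 5.76, 4.61 and 4.14 CPM against 11.3, 8.64, 13.0 and 12.8 CPM, with 1.25 ± 0.18 (SE, adjusted p = 0.00289, limma-voom). Kdm6b, the JMJD3 eraser of H3K27, read 28.2, 21, 19.0 and 31.3 CPM against 37.6, 55.3, 55.1 and 72.1 CPM, with 1.12 ± 0.23 (SE, adjusted p = 0.0118, limma-voom). In all 3 the groups did not overlap, as in 11 of 49 members and 23.3% of all genes. Kdm4a and Kdm1a had smaller values, 0.46 ± 0.09 and 0.29 ± 0.07 on the log2 scale (SE). Without library CIX 2, Kdm7a passed adjusted p < 0.001 and the count became 1, with 0.591% of all genes called. Ehmt2, Setd5 and Setd6, called in 4T1, had log2 fold changes of 0.34, 0.24 and 0.39 in 67NR and did not pass.

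**Figure D3:**
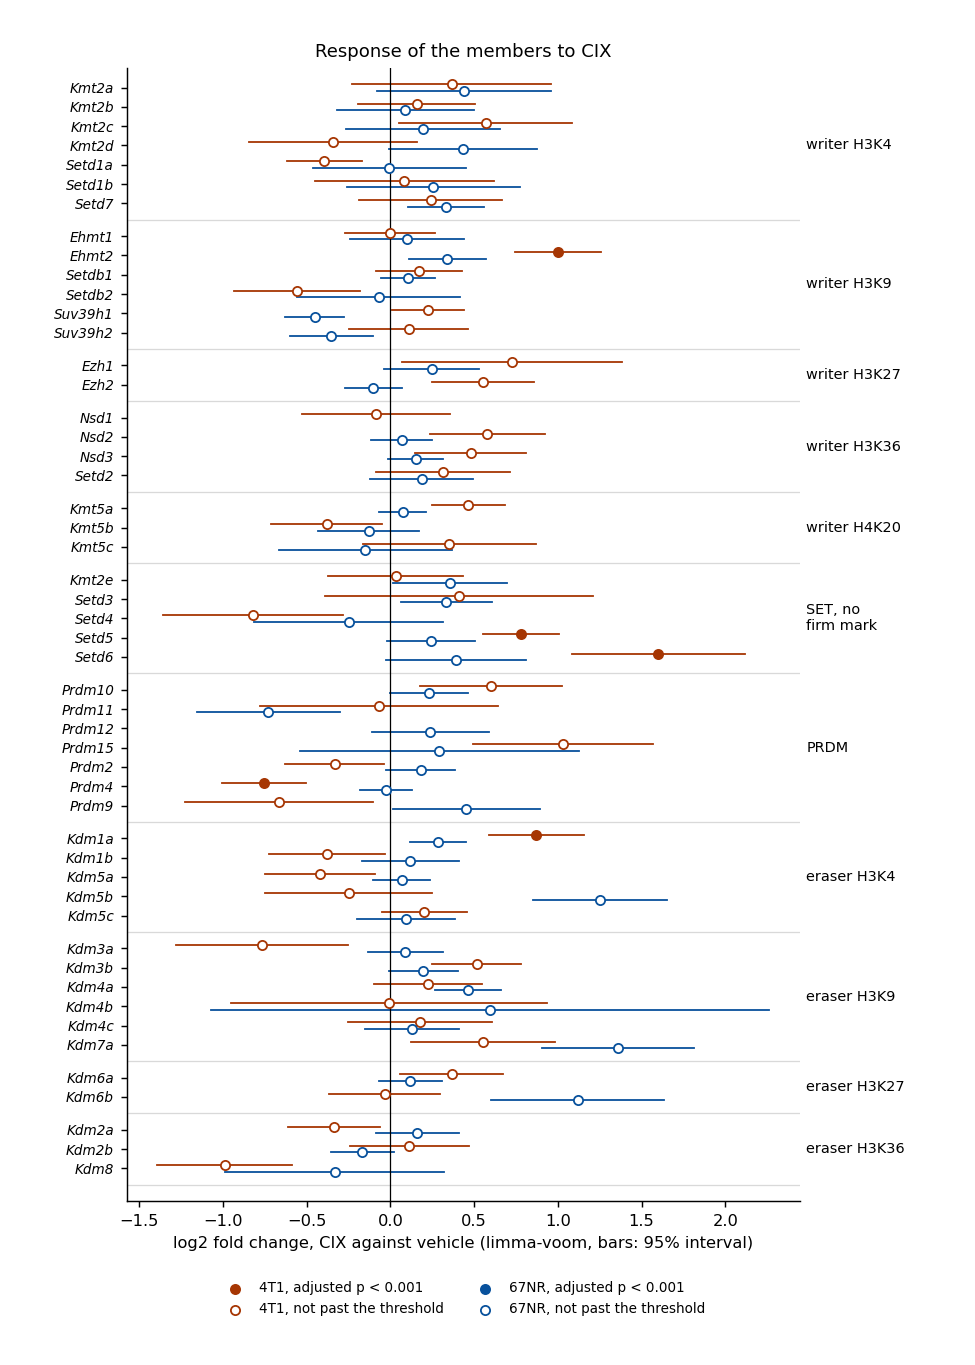
Log2 fold change under CIX with its 95% interval for each member tested, grouped by role, in 4T1 (brown) and 67NR (blue), where filled points passed adjusted p < 0.001. The filled points are the 5 members called in 4T1, and none is filled in 67NR.

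Whether the response differed between the lines was tested by the interaction, the log2 change in 4T1 minus that in 67NR, over all 16 samples. Since it uses the samples of both earlier comparisons, it is no independent evidence for either. Of 50 members tested, 2 passed adjusted p < 0.001, against 7.86% of all 12613 genes, and 16 passed 0.05 (8 in each direction) against 29.3% (15.1% higher, 14.2% lower). Suv39h1 (chrX:8061171-8074760), which places 3 methyl groups on H3K9 in heterochromatin, read 50.4, 46.2, 42.6 and 49.2 CPM in 4T1 vehicle and 56.9, 55.6, 57.1 and 53.1 CPM with CIX. In 67NR it read 45.0, 40.3, 43.9 and 37.7 CPM in vehicle and 32.7, 31.8, 29.5 and 29.4 CPM with CIX. The treated libraries therefore lay above all vehicle libraries in 4T1 and below all of them in 67NR. The interaction was 0.68 ± 0.12 (SE, adjusted p = 0.000445, limma-voom), and within each line the change was 0.23 and -0.45 on the log2 scale, neither past 0.001.

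Prdm4 was the other member with a called interaction, of -0.73 ± 0.13 (SE, adjusted p = 0.000709, limma-voom), with -0.76 in 4T1 and -0.03 in 67NR. The other members called in 4T1 had interactions of 0.66 for Ehmt2, 0.58 for Kdm1a, 0.54 for Setd5 and 1.20 for Setd6, with adjusted p of 0.00605 to 0.0158 (limma-voom). A larger response in 4T1 was therefore not shown for them at 0.001. Kdm5b and Kdm6b had interactions of -1.51 ± 0.40 and -1.15 ± 0.28 (SE), which missed that threshold in limma-voom. Both passed in DESeq2, and Kdm5b also in edgeR and in limma-voom without 4T1 vehicle 3. Of the 16 fits that each leave out 1 library, Suv39h1 passed in 7 and Prdm4 in 4, with log2 values of 0.63 to 0.72 and of -0.79 to -0.67. DESeq2 called 5 members and 15.7% of all genes, and edgeR 3 and 8.06%. With library size as the sole scaling (7.2% of all genes called) and on log2(TPM + 1) (8.25%) or log2(TPM + 0.1) (7.08%), Prdm4 was called and Suv39h1 was not, with adjusted p of 0.00142, 0.00413 and 0.00442 in the limma fits. With no filter (3.63%), Suv39h1 was called and Prdm4 was not (adjusted p = 0.00165, limma-voom). Over the fits without 1 library the count ran from 0 to 3, while 5.14% to 8.42% of all genes were called. It was 0 without 67NR vehicle 5 or 9, 67NR CIX 6, 10 or 14, 4T1 vehicle 7 or 4T1 CIX 8, it was 1 without 67NR vehicle 1 or 13, 67NR CIX 2, 4T1 vehicle 15 or 4T1 CIX 12 or 16, and 3 without 4T1 vehicle 3. Without 4T1 libraries 3 and 4 together, 4 members and 9.33% of all genes passed, the members being Suv39h1, Ezh2, Kdm3a and Kdm5b, and Prdm4 did not (adjusted p = 0.00145, limma-voom).

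The genes of the cell cycle moved beside these values. In 67NR all 15 proliferation genes had log2 fold changes below 0, with a median of -0.73, and 12 passed adjusted p < 0.05 (17.8% of all genes) but 0 passed 0.001 in limma-voom. In 4T1 the median was 0.15 and 3 of 15 passed 0.001 against 9.32% of all genes, with Ccna2 (1.11) and Foxm1 (0.83) higher and Pcna (-0.92) lower on the log2 scale. In the interaction 4 of the 15 passed 0.001 against 7.86%, and so did Uhrf1, which reads H3K9 methylation during DNA replication, with 1.75 ± 0.24 (SE, adjusted p = 7.76e-05, limma-voom). Uhrf1 averaged 98.3 and 169 CPM in 4T1 and 315 and 163 CPM in 67NR, vehicle first. The part of proliferation in the value of Suv39h1 was not tested.

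The comparison of the vehicle-treated lines asked how the metastatic and the non-metastatic line differ at baseline. It uses the 4T1 vehicle samples of the first comparison. Of 49 members tested, 10 passed adjusted p < 0.001 (20.4%), 8 higher in 4T1 and 2 lower, against 40% of all 11044 genes (20.4% higher, 19.6% lower). DESeq2 called 22 members and 51.9% of all genes. The erasers held 8 of the 10. Of 17 erasers tested, 7 were higher in 4T1 and 1 lower (47.1%), and of 21 writers none was higher and 1 lower (4.76%). The filter left out the writer Nsd1, which was higher in 4T1 and was called with no filter, as described below. The median log2 difference was 0.68 over the erasers, -0.13 over the writers, 0.17 over all members tested, 0.13 over the tenth of all genes with the longest transcripts and -0.01 over all genes. At adjusted p < 0.05, 28 members passed against 67.4% of all genes (33.3% higher, 34.1% lower), of which 12 erasers were higher and 3 lower and 3 writers higher and 7 lower.

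All 6 erasers of H3K4, Kdm5d included, had groups that did not overlap, with 4T1 higher, as had 31.3% of all genes. Whether the reads assigned to the Y-linked Kdm5d come from that gene is uncertain, as described below. Kdm5b (chr1:134560171-134635285), also known as JARID1B, had the largest difference of the members that passed the filter. It read 70.6, 106, 136 and 151 CPM in 4T1 and 4.29, 5.76, 4.61 and 4.14 CPM in 67NR, a log2 difference of 4.57 ± 0.34 (SE, adjusted p = 3.14e-06, limma-voom). Its close relatives differed by far less. Kdm5c (chrX:152233020-152274535) had 106 to 130 CPM in 4T1 and 59.8 to 68.4 CPM in 67NR with a log2 difference of 0.84 ± 0.10 (SE, adjusted p = 6.07e-05, limma-voom). Kdm5a (chr6:120364124-120444574) had 88.4 to 129 CPM against 63.7 to 70.6 CPM and 0.69 ± 0.12 (SE, adjusted p = 0.000703, limma-voom). Kdm1a, at 68.7 to 89.8 CPM against 59.5 to 68.3 CPM, did not pass (0.35 ± 0.09, SE, adjusted p = 0.00928, limma-voom).

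The erasers of H3K27 went in opposite directions. Kdm6b (chr11:69398508-69413675) read 99.6, 100, 125 and 144 CPM in 4T1 and 28.2, 21, 19.0 and 31.3 CPM in 67NR, a log2 difference of 2.24 ± 0.19 (SE, adjusted p = 7.8e-06, limma-voom). Kdm6a (chrX:18162575-18279936), the UTX enzyme encoded on the X chromosome, read 24.2, 22.2, 20 and 25.9 CPM in 4T1 and 45.0, 43.8, 48.3 and 40.2 CPM in 67NR. It was lower in 4T1 by -0.96 ± 0.11 on the log2 scale (SE, adjusted p = 3.87e-05, limma-voom). On the CPM scale of each gene, the line with more Kdm6b was thus the line with less Kdm6a. The remaining erasers called were Kdm7a (chr6:39136623-39206789; 21.1 to 33.4 against 10.9 to 14.9 CPM, log2 difference 1.07), the H3K36 eraser Kdm2a (chr19:4314419-4398285; 152 to 202 against 111 to 124 CPM, 0.55) and Kdm4a (chr4:118136957-118180043; 91.5 to 106 against 59.2 to 73.5 CPM, 0.53), which acts on H3K9 and H3K36. Their adjusted p were 0.000308, 0.000891 and 0.000575 (limma-voom), and their groups did not overlap.

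Kmt5a (chr5:124439930-124462308) was the writer that differed at this threshold, with 99.4, 107, 103 and 98.2 CPM in 4T1 and 154, 172, 165 and 171 CPM in 67NR. The log2 difference was -0.71 ± 0.07 (SE, adjusted p = 2.92e-05, limma-voom). Ezh2, with -0.46 ± 0.10, and Nsd2, with -0.29 ± 0.08 on the log2 scale (SE), lay below 0 without passing in limma-voom, while DESeq2 called Ezh2. Prdm2 (chr4:143107391-143212995), the RIZ factor of the PRDM family, read 68.3, 85.2, 87.8 and 79.8 CPM in 4T1 and 30.2, 29.3, 31.3 and 29.4 CPM in 67NR, a log2 difference of 1.40 ± 0.10 (SE, adjusted p = 2.11e-06, limma-voom). Kdm4b, the H3K9 eraser with the highest mean over all libraries though below Kdm3a in both vehicle groups (83.4 and 92.0 TPM in 4T1, 32.9 and 42.7 TPM in 67NR), did not pass. It read 79.4, 201, 137 and 136 CPM in 4T1 vehicle and 130, 17.8, 19.3 and 65.5 CPM in 67NR vehicle, so that the groups overlapped (log2 difference 1.65 ± 0.59, SE, adjusted p = 0.0335, limma-voom). Its log2 fold change under CIX in 67NR was 0.59 ± 0.74 (SE). The SET protein with the highest level, Setd3, had a log2 difference between the lines of 0.36 ± 0.35 and a log2 fold change of 0.33 ± 0.12 under CIX in 67NR (SE), and neither passed.

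**Figure D4:**
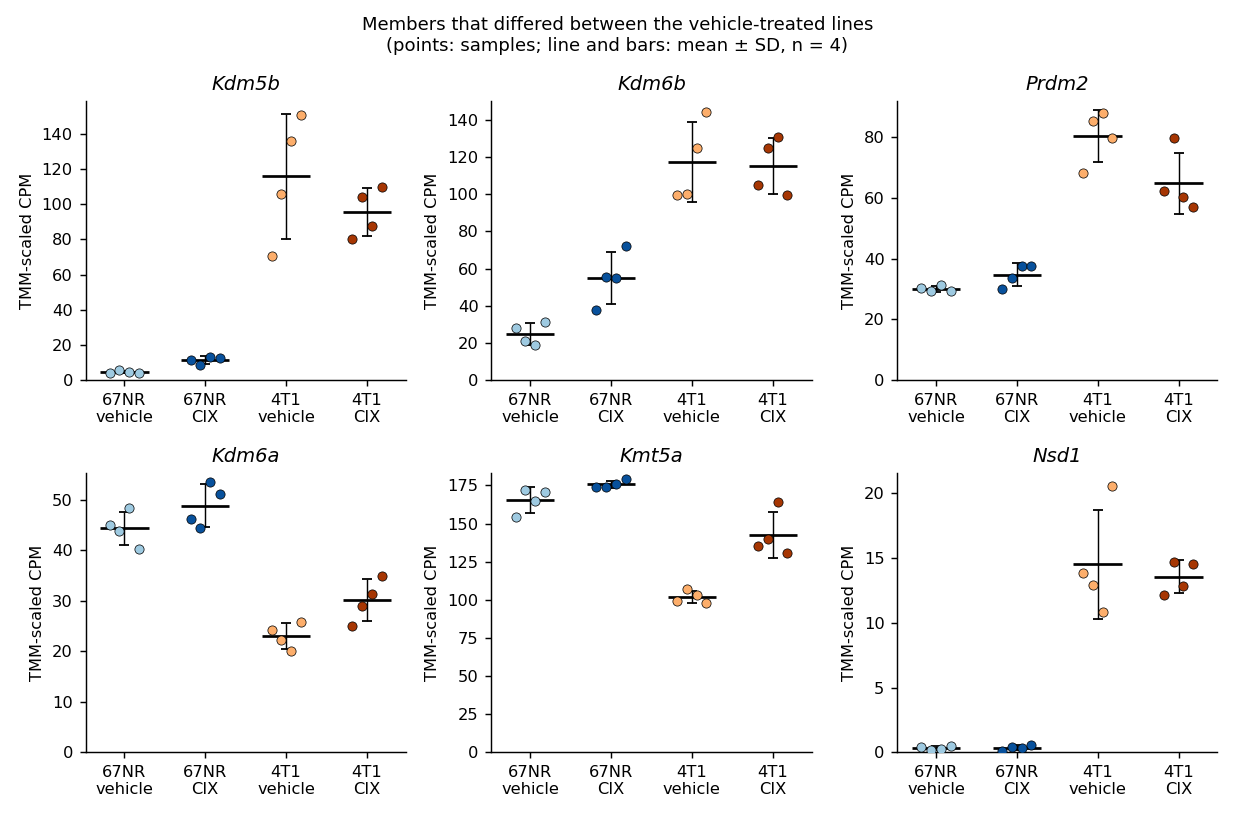
TMM-scaled CPM of 6 members that separated the lines, by group (points are samples, lines and bars the mean and SD of 4 samples, every axis starts at 0). Kdm5b, Kdm6b, Prdm2 and Nsd1 are higher in 4T1 vehicle than in 67NR vehicle and Kdm6a and Kmt5a lower, with no overlap.

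In the 8 fits that leave out 1 library, Kdm5b, Kdm6b, Kdm5c, Kdm6a, Kmt5a and Prdm2 passed every time. Kdm7a was lost without 67NR vehicle 1, 9 or 13 and passed in 5, while Kdm2a and Kdm4a passed in 2 each and Kdm5a in 1. The same 3 were lost with no filter. Kdm4a was also lost with library size as the sole scaling, in both TPM fits and in the common fit of all 16 samples, and Kdm2a in edgeR and with library size alone. The share of all genes called was 38.9% in edgeR, 39.3% with library size alone, 28.5% with no filter, 38.4% and 37.6% in the fits on log2(TPM + 1) and log2(TPM + 0.1), and 46.4% in the common fit. The number of members called ran from 7, without 67NR vehicle 1, 9 or 13, to 13 without 4T1 vehicle 3, while 36.1%, 36.1%, 40.7% and 42.2% of all genes were called in those 4 fits. The lines also differed in epithelial and mesenchymal markers: on average Vim read 1118 CPM in 4T1 vehicle and 5094 CPM in 67NR vehicle, and Fn1 read 1659 and 1276 CPM, with a log2 difference of 0.35 that did not pass the test (adjusted p = 0.0459, limma-voom). The part of these or of any other property of the 2 lines cannot be told apart from metastatic potential with 1 line of each kind.

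**Figure D5:**
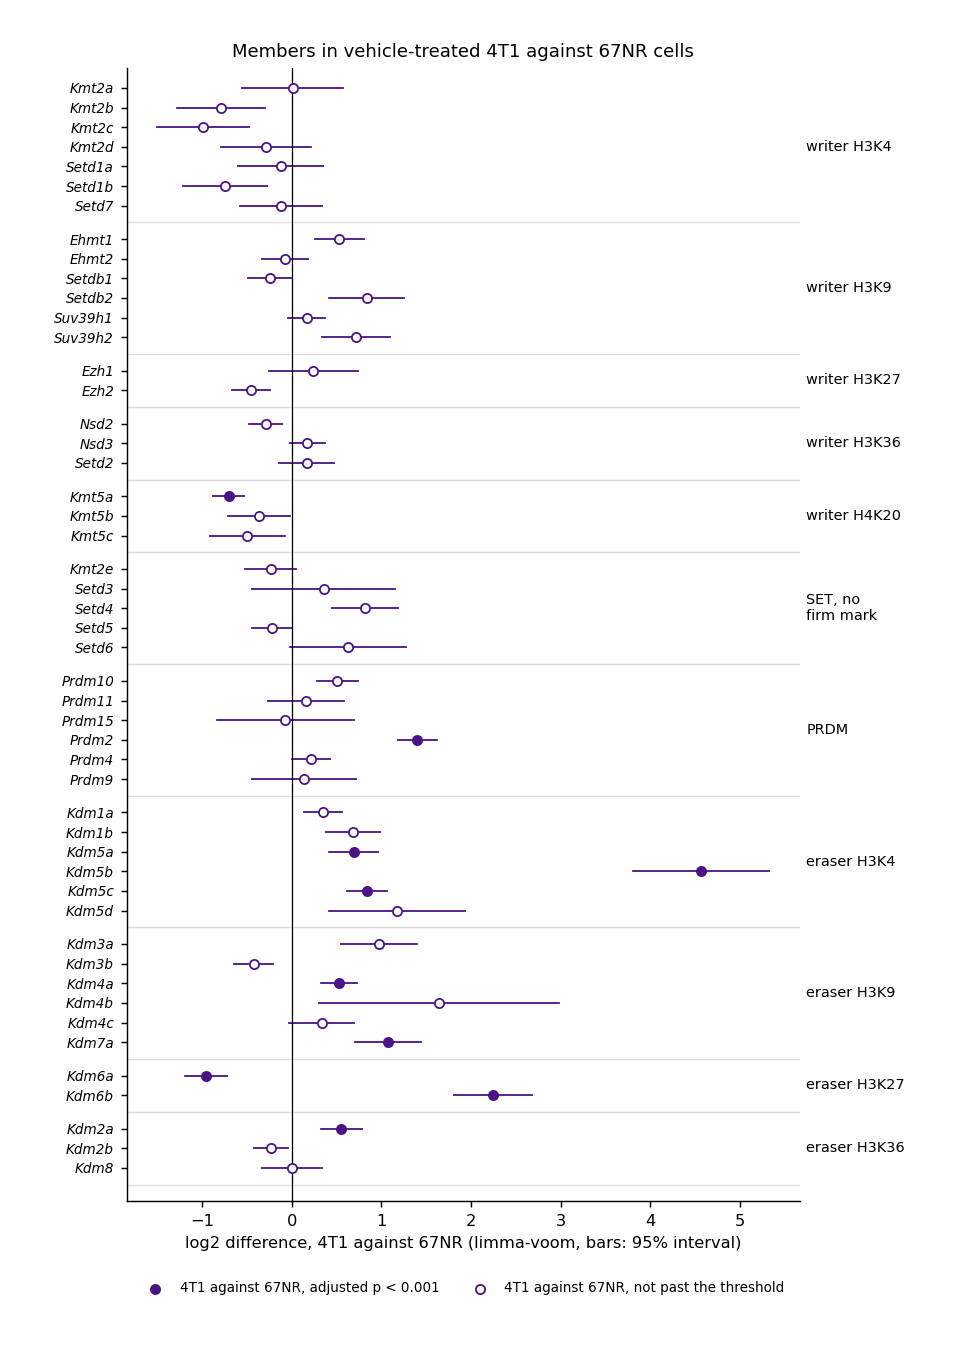
Log2 difference between 4T1 and 67NR vehicle cells with its 95% interval for each member tested, grouped by role, where filled points passed adjusted p < 0.001. The filled points are 7 erasers, Prdm2 and, below 0, Kdm6a and Kmt5a, and Kdm5b lies farthest out at 4.57.

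Some members were too low in 1 line to enter the comparison. Nsd1 (chr13:55209782-55318325), which places up to 2 methyl groups on H3K36, read 13.8, 12.9, 10.8 and 20.5 CPM in 4T1 vehicle and 0.397, 0.178, 0.239 and 0.512 CPM in 67NR vehicle. These were 250 to 499 estimated counts a library in 4T1 and 4 to 12 in 67NR, and the mean CPM was 43.8-fold higher in 4T1. The exact two-sided permutation test gave p = 0.0286, the smallest that 4 against 4 samples allow. With no filter, limma-voom gave adjusted p = 1.91e-06 and called 28.5% of all genes. Its relatives Nsd2 and Nsd3 were expressed in both lines, and CIX left Nsd1 at 12.1 to 14.7 CPM in 4T1. Prdm12, a PRDM factor of sensory neuron development, showed the reverse. It had 69 to 112 counts in the 67NR vehicle libraries (2.94 to 4.44 CPM) and 0 counts in all 8 libraries of 4T1, where 3 counts correspond to at most 0.131 CPM. The mean in 67NR vehicle was thus at least 29.7-fold higher than this floor of a single library (p = 0.0286, exact two-sided permutation test, the smallest possible).

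Of the 59 members, 8 passed the filter in no comparison. These were Kdm4d and 7 PRDM factors, among them Prdm1, Prdm13 and Prdm16. Prdm1 read at most 1.75 CPM and Kdm4d at most 0.578 CPM in any library. At these levels both were higher in every 4T1 vehicle library than in any 67NR vehicle library (exact permutation test, two-sided p = 0.0286 for each, the smallest that 4 against 4 can give). Kdm5d, the Y-linked relative of Kdm5c, entered the comparison of the lines only. It read 4.91 to 12.1 CPM in 4T1 vehicle, 1.90 to 2.67 CPM in 4T1 CIX, 2.70 to 3.62 CPM in 67NR vehicle and 1.92 to 5.33 CPM in 67NR CIX, while the Y-linked genes Ddx3y and Eif2s3y stayed below 0.3 CPM in all 16 libraries. Uty, also on the Y chromosome, read 0.289 to 0.963 CPM in 4T1 vehicle, 0.0717 to 0.387 CPM in 4T1 CIX and 0.223 to 0.618 CPM in 67NR. Of the 31-base words of Kdm5d, 6.32% occur in other genes. Whether the reads assigned to Kdm5d come from that gene was not tested.

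Promoters are shown for Ehmt2 and Kdm1a, a writer and an eraser that rose together in 4T1, for Suv39h1, whose response differed between the lines, and for Kdm5b, which differed most between the lines among the members that passed the filter. Each is the 250 bases upstream of the transcription start in RefSeq, build GRCm38.p6, given 5′ to 3′ on the strand of the gene, and 44 of the 59 members had an entry. Capitals mark matches, on either strand, to GGGCGG (the GC box), CCAAT, TTTNNCGC (E2F type), TTTGAA (TCF type) or the interferon regulatory factor type, GAAA, NN and GAAA in a row.
Ehmt2 (chr17:34898224-34898473, plus strand): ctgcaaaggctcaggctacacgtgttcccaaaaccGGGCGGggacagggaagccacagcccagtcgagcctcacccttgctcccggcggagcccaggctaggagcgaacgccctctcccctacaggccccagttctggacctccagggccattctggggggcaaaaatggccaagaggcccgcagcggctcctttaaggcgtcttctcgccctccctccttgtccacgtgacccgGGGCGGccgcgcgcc
Kdm1a (chr4:136602724-136602973, minus strand): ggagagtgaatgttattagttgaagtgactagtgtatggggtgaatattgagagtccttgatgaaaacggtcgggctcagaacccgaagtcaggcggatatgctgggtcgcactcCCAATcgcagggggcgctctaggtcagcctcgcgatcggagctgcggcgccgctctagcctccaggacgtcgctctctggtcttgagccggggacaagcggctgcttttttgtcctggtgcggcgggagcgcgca
Suv39h1 (chrX:8074761-8075010, minus strand): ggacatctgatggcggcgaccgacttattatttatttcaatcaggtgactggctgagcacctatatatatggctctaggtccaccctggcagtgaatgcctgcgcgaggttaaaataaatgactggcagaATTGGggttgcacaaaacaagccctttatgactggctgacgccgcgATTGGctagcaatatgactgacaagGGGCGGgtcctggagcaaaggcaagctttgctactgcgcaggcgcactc
Kdm5b (chr1:134559928-134560177, plus strand): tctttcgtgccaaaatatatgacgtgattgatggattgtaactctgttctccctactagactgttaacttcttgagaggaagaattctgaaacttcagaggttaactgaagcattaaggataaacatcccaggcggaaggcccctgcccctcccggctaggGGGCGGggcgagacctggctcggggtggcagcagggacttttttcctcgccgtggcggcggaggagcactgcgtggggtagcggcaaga
The GC box occurred in the windows of Ehmt2, Suv39h1 and Kdm5b, as in 32.7% of all 32851 windows of this length, and CCAAT or its complement in those of Kdm1a and Suv39h1, as in 33.8%. TTTNNCGC, TTTGAA and the interferon regulatory factor type, held by 4.28%, 16.0% and 2.98% of all windows, did not occur in the 4, and no matches overlapped. The windows held 18, 21, 11 and 13 CpG in the order printed, where the median window held 6. Ehmt2 and Kdm1a, which rose together, had no searched motif in common. A match is a description of these letters and not evidence of binding.

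The genes that work with the members gave further context. In 4T1 under CIX, 0 of 12 COMPASS and MLL partners, which serve the H3K4 writers, and 0 of 9 PRC2 partners passed 0.001. The threshold was passed by 1 of 8 H3K9 and heterochromatin partners (Wiz) and 1 of 7 LSD1 partners (Rcor1), where 9.32% of all genes passed. Among 14 tested histone enzymes outside the symbol rule, Riox1, a nucleolar JmjC hydroxylase, rose by 1.65 ± 0.16 on the log2 scale (SE, adjusted p = 0.000105, limma-voom). Jmjd6, a JmjC lysine hydroxylase, fell by 1.27 (150 to 63.4 CPM, adjusted p = 6.7e-05, limma-voom), and both had a called interaction. Of 7 methyl donor genes 1 rose past 0.001. At adjusted p < 0.05, 4 were higher and 1 lower, against 21.9% and 20.8% of all genes. The lower one, Mat2a, is named after its value was seen (log2 fold change -1.51 ± 0.24, SE, adjusted p = 0.00107, limma-voom). In the interaction Mtap, which salvages methylthioadenosine, passed with 1.03 ± 0.19 (SE). In 67NR none of these 6 lists had a gene past 0.001 in limma-voom, where 24 of their 57 tested genes had an unadjusted p < 0.05 against 32.8% of all genes.

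Between the vehicle-treated lines, 5 of 8 H3K9 and heterochromatin partners passed (1 higher in 4T1, 4 lower), as did 5 of 9 PRC2 partners (2 higher, 3 lower), 4 of 12 COMPASS and MLL partners (1 higher, 3 lower), 6 of 13 enzymes outside the rule (4 higher, 2 lower) and 1 of 7 methyl donor genes (lower). None of the 7 LSD1 partners did, although 5 passed adjusted p < 0.05. Among the partner genes that passed the filter, the largest difference was that of Hr, a JmjC protein named for the hairless phenotype, with 23.0 CPM in 4T1 and 4.67 CPM in 67NR on average and a log2 difference of 2.31 ± 0.22 (SE, adjusted p = 1.58e-05, limma-voom). Riox1 was lower in 4T1 by -1.98 ± 0.16 on the log2 scale and Uhrf1 by -1.70 ± 0.11 (SE), with 40% of all genes called in this comparison.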

How the data were processed

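RNA of 16 samples (4T1 and 67NR, CIX or vehicle, 4 per group) was sequenced by the authors, who quantified transcripts with Salmon 0.12 against Ensembl GRCm38 and summed them to genes with tximport. The submitters' notes also list a human build, while the gene identifiers are those of the mouse. The deposited values are estimated counts per gene, of which 0.0436% of those above 0 were whole numbers within 1e-06, and they were rounded here. All 16 columns were matched to samples by their labels. To approximate TPM, counts were divided by the average length of the transcripts of a gene in GENCODE M21. A gene had to reach a TPM of 1 in all but at most 3 samples of a comparison. Genes kept were scaled by TMM and tested with limma-voom (limma 3.58.1, edgeR 4.0.16, R 4.3.3) within the groups compared, with Benjamini-Hochberg adjustment over all genes tested and a threshold of adjusted p < 0.001, as in the methods of the study. For CIX in 4T1 this called 1087 genes, and the common fit of all 16 samples called 2680. Both are fewer than the study reports, and its methods do not say which samples its fit held. The interaction used all 16 samples. The comparisons share samples: the 4T1 vehicle libraries serve in 3 of them and the 67NR vehicle libraries as well. Members left out by the filter were compared by the exact two-sided permutation test. Alternatives were edgeR's quasi-likelihood test, DESeq2 1.42.0, other scalings, no filter, limma on log2(TPM + 1) and log2(TPM + 0.1), a common fit and leaving out single libraries. The scripts were checked on simulated counts.

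The libraries held 21715700 to 29450629 estimated counts, so that 3 counts correspond to 0.108 to 0.137 CPM. This floor covers counting error only. Intervals of 95% are those of limma. Shared sequence was counted over 31-base words of the GENCODE M21 transcripts. Members named with their values are those called in any comparison and the highest member of each role by mean TPM, and at most 4 partner genes are named per comparison. Some exceptions are marked as chosen after their values were seen. Nsd1, Prdm12, Prdm1, Kdm4d and Kdm5d, which the filter left out of some or all comparisons, were also named with their values known. The members, roles and lists were chosen with earlier results of these data known. Some genes of the lists are not reported here.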

Additional observations from a re-analysis of the deposited data

Results flagged for a closer look

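Setd1a, a writer of H3K4, read 217 CPM in sample 13 of 67NR vehicle and 111, 120 and 127 CPM in the other samples of that group, a gap large for the range of 4 samples. Setd3, the actin histidine methyltransferase, read 64.5 CPM in sample 11 of 4T1 vehicle and 196, 189 and 210 CPM in the others. Setd1a shares 51.8% and Setd3 21.9% of their 31-base words with other genes. With 90 groups of 4 examined, chance at 1 in 20 gives 4.5 such gaps, and 2 were found.

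The response to CIX differed between the lines for Prdm4, with an interaction of -0.73 on the log2 scale, and for Suv39h1, with 0.68. Both passed adjusted p < 0.001 in limma-voom, where 7.86% of all genes did.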

How the results depend on the processing

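None of the 17 log2 values called in limma-voom changed direction in the alternatives run for it. The number of members above 0 in 4T1, 30, ranged from 28 to 33 over the other scalings and tests. The number of members called under CIX in 4T1, 5 in limma-voom, was 11 with DESeq2, 8 with all 16 samples in a common fit, 2 when limma was run on log2(TPM + 1), 2 with 0.1 in place of 1, and 20 at adjusted p < 0.05. Leaving out 1 library gave 0 to 4. In 67NR the count of 0 became 5 with DESeq2 and 7 at 0.05, and 0 to 1 without 1 library. For the interaction the count of 2 became 5 with DESeq2, 16 at 0.05, 1 with library size as the sole scaling, 1 with no filter, 1 in either of those TPM fits, and 0 to 3 without 1 library. Between the lines, 10 became 22 with DESeq2 and 28 at 0.05, and 7 to 13 without 1 library. Leaving out 4T1 vehicle 3 and 4T1 CIX 4 together, chosen after seeing the data, gave 1 in 4T1 and 4 for the interaction. The writer to eraser ratio with the SET proteins added to the writers was 1.62 in 4T1 vehicle, 2.11 in 4T1 CIX, 2.80 in 67NR vehicle and 2.63 in 67NR CIX, and with the PRDM factors added too 1.83, 2.27, 3.03 and 2.84. Without the highest writer and eraser it was 1.99 in 67NR CIX. The cause of these shifts was not tested. No paired analysis was run, because the label numbers are not shared between groups and no source says that consecutive numbers mark a pair. The numbers do run through the 4 groups in turn, with 1 library of each. If neighbours were handled together, the unpaired tests used here leave that out. At this depth, members below about 0.1 CPM cannot be told from 0.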
